A study of Homo sapiens with 2 samples.

Results

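Collagens are the main structural proteins of the extracellular matrix. Each is built from alpha chains that wind into a rope-like helix, and the chains fall into classes by what they assemble into: banded fibrils, sheets of basement membrane, beaded filaments, anchoring fibrils, or forms held in the cell membrane. In stratified epithelium the basal cells rest on a basement membrane of type IV collagen and are tied to the tissue below by anchoring fibrils of type VII collagen, while the fibrillar collagens are made mostly by fibroblasts. The genes described here are the 43 protein-coding genes whose symbols are COL, digits, A and digits, such as COL1A1, with COL17A1 left out, among 20033 protein-coding genes on the main chromosomes. The rule uses the gene symbol alone.

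The study mapped DNA recovered with a TCF4 antibody in sphere cultures of CAL-27, an established human line from a squamous cell carcinoma of the tongue. The TCF4 antibody gave 1 library with a list of 26642 peaks on hg38, and an IgG control antibody gave 1 library that is not analysed here. TCF4 is the symbol of a basic helix-loop-helix protein that binds E-boxes and also an older name of TCF7L2, a partner of beta-catenin, and the sample labels give no clue to the protein meant. With 1 library there is no replicate of any value, no test was run, and peaks that would also appear with the IgG antibody were not set apart. A peak is placed by its summit, its strength is the authors' fold enrichment over the local background, and the number of fragments at the summit was solved from that fold and its p-value. Over the whole list the median fold was 5.13 on a median of 10 fragments, so most single peaks are shallow.

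Few collagen genes carried a peak at an end. Only 3 of the 43, COL7A1, COL12A1 and COL6A6, had a summit within 1 kb of either end of the gene record, a share of 6.98% (Wilson interval 2.40 to 18.6%), against 41.2% of all protein-coding genes. At all 3 genes these summits, 4 in all, lay near the start. Among the 31 collagen genes whose start is given in the RefSeq promoter table, the same 3 had a summit within 1 kb of a start, 9.68% (Wilson interval 3.35 to 24.9%), against 44.5% of the 15842 protein-coding genes with a listed start. Intervals here cover counting alone, and genes are not replicates.

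**Figure D1:**
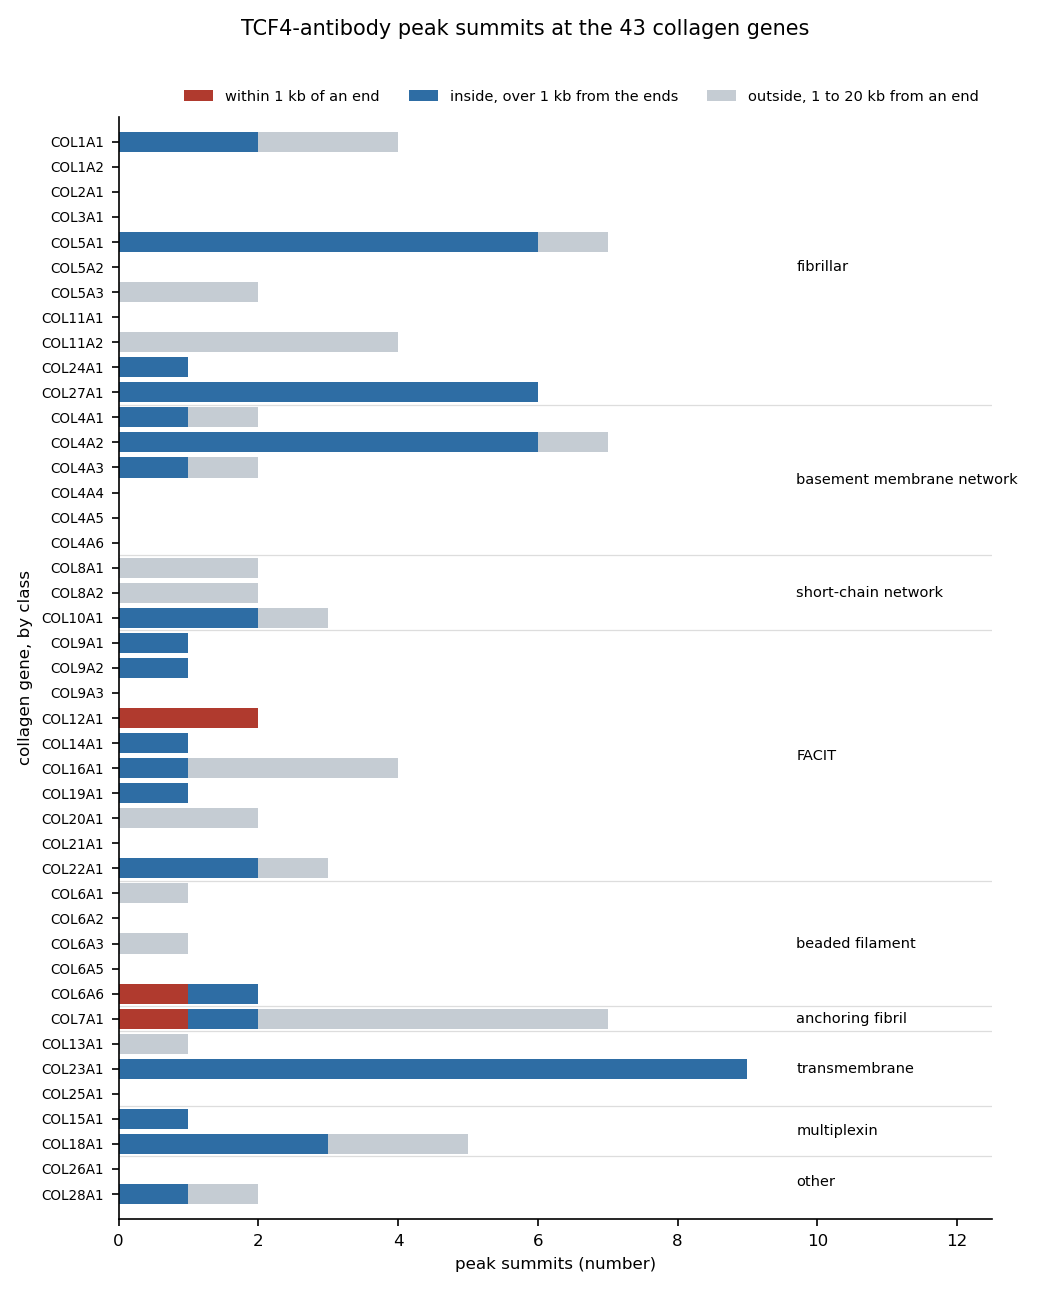
Number of peak summits (horizontal axis) at each of the 43 collagen genes (vertical axis, by class), split into summits within 1 kb of an end, summits inside the gene and over 1 kb from its ends, and summits outside it within 20 kb. Summits at an end appear at COL12A1, COL6A6 and COL7A1 alone, and COL23A1 holds the most summits inside, 9.

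The promoter sequences of COL12A1 and COL7A1 are shown because their peaks reach into the 250 bases before the listed start. Both are on the minus strand and are printed 5′ to 3′ along the gene, with the part covered by the peak in capitals. The COL12A1 stretch is chr6:75206054-75206303 and the COL7A1 stretch is chr3:48595330-48595579, from RefSeq on GRCh38.p14.
COL12A1: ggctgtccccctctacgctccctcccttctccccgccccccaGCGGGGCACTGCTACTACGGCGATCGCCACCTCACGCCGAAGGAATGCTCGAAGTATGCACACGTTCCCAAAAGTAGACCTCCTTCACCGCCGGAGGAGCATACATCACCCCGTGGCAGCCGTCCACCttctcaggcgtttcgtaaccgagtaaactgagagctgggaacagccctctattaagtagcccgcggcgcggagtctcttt
COL7A1: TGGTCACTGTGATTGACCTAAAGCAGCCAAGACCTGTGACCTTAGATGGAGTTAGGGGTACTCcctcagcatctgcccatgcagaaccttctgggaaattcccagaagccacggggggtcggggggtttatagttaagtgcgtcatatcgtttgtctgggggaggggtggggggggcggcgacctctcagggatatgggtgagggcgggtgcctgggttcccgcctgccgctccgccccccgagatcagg
The COL12A1 stretch holds the whole peak of 128 bases, and its summit is base 51 as printed. The COL7A1 stretch holds 63 of the 226 bases of its peak, whose summit lies farther upstream. The COL6A6 peak begins 25 bases beyond the promoter window of that gene and is not shown.

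Neither covered part held any of the motifs searched on both strands: the E-box CANNTG with its forms CAGGTG and CAGCTG, the TCF/LEF cores CTTTGA and CTTTGT, the GC box GGGCGG, the CAAT box letters CCAAT, and the TATA box letters TATAAA. The COL7A1 stretch had 1 E-box outside the covered part, at base 70, with 3 GC boxes and the TATA box letters nearer the start. The COL12A1 stretch had 1 GC box outside the covered part, at base 33 on the opposite strand, and no E-box. The promoter window of COL12A1 also takes in the 50 bases after the start, which are not printed and which neither of its peaks covers. That window held 2 matches of CANNTG, 1 of them CAGCTG, and they lay in those 50 bases. It also held 2 GC boxes, that at base 33 and another in those 50 bases. Over the 43 promoter windows of the 31 collagen genes with a listed start, 24 held CANNTG (55.8%), against 65.1% of the 22198 windows of protein-coding genes. CTTTGA was found in 10 collagen windows (23.3%), against 10.9% of all windows, and CTTTGT in 6 (14.0%), against 13.6%. CAGGTG was found in 5 (11.6%), against 19.9%, and CAGCTG in 6 (14.0%), against 18.02%. GGGCGG stood in 24 (55.8%), against 56.3%, CCAAT in 13 (30.2%), against 34.7%, and TATAAA in 7 (16.3%), against 9.47%. CAGGTG and CAGCTG are also counted under CANNTG, and some genes have several windows. The windows of COL4A1 and COL4A2 overlap and share a CTTTGA match that is counted for each. A match is a description of these letters, not a binding site.

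COL7A1 encodes the chain of the anchoring fibrils under basal keratinocytes. Its peak at chr3:48595517-48595742 had its summit 300 bp before the start, with a fold of 4.07 on 22 fragments (exact Poisson interval 13.8 to 33.3). The local background there was 4.66 fragments, against a median of 0.962 over the list. The fold therefore lay below the median of the list although the fragments were more than its median. A weaker summit inside the gene, 19588 bp past the start, had a fold of 3.65 on 13 fragments.

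COL12A1 encodes a chain that sits on the surface of collagen fibrils. It had a peak on each side of its start. One summit, at chr6:75206134-75206261, lay 200 bp before the start with a fold of 5.14 on 10 fragments (exact Poisson interval 4.80 to 18.4). The other, at chr6:75205289-75205403, lay 658 bp past it with a fold of 4.75 on 9 fragments. The summits were 858 bp apart, and no end of another protein-coding gene was closer than 31422 bp.

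COL6A6, a chain of the beaded filaments of type VI collagen, had a summit 86 bp past its listed start, in the peak chr3:130517251-130517370. The fold was 4.66 on only 6 fragments (exact Poisson interval 2.202 to 13.1), with a −log10 q of 2.92. A second summit 37434 bp past the start had a fold of 4.63, also on 6 fragments. Of the 4 peaks at these 3 genes, the COL7A1 peak alone, with a −log10 q of 5.51, passes a −log10 q of 5. The intervals of COL7A1 and COL12A1, and of COL12A1 and COL6A6, overlap.

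Counts at gene ends and starts were also set beside genes of like length and promoter composition, where several groups hold too few collagen genes to tell. Collagen genes are long, with a median of 150.2 kb against 24.1 kb for all protein-coding genes, and none fell in the shortest tertile of gene lengths. In the middle tertile 1 of 12 collagen genes had a summit at an end (Wilson interval 1.49 to 35.4%), against 45.9% of all genes of that tertile. In the longest tertile it was 2 of 31 (1.79 to 20.7%), against 43.1%. Counted at listed starts, it was 1 of 5 in the middle tertile (3.62 to 62.4%), against 48.9%, and 2 of 26 in the longest (2.14 to 24.1%), against 49.1%. Promoter GC, averaged over the listed 300-base windows of a gene, had a median of 66.7% in collagen genes and 62.3% in all protein-coding genes. In the GC-richest tertile of promoters 1 of 14 collagen genes had a summit within 1 kb of a start (1.27 to 31.5%), against 60.9% of all genes there. In the middle tertile it was 2 of 9 (6.32 to 54.7%), against 51.1%, and in the GC-poorest 0 of 8 (up to 32.4%), against 21.3%. The share of all genes thus lay inside the collagen interval in these 2 tertiles of GC, and above it in the GC-richest. By the number of CpG dinucleotides the counts were 1 of 13, 2 of 9 and 0 of 9 from the richest tertile to the poorest, against 63.2%, 55.2% and 15%. Their intervals were 1.37 to 33.3%, 6.32 to 54.7% and up to 29.9%. Unlike for GC, the share of all genes lay above the collagen interval in the middle tertile of CpG number, though narrowly. It lay above it in the richest tertile as well, and inside it in the poorest.

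**Figure D2:**
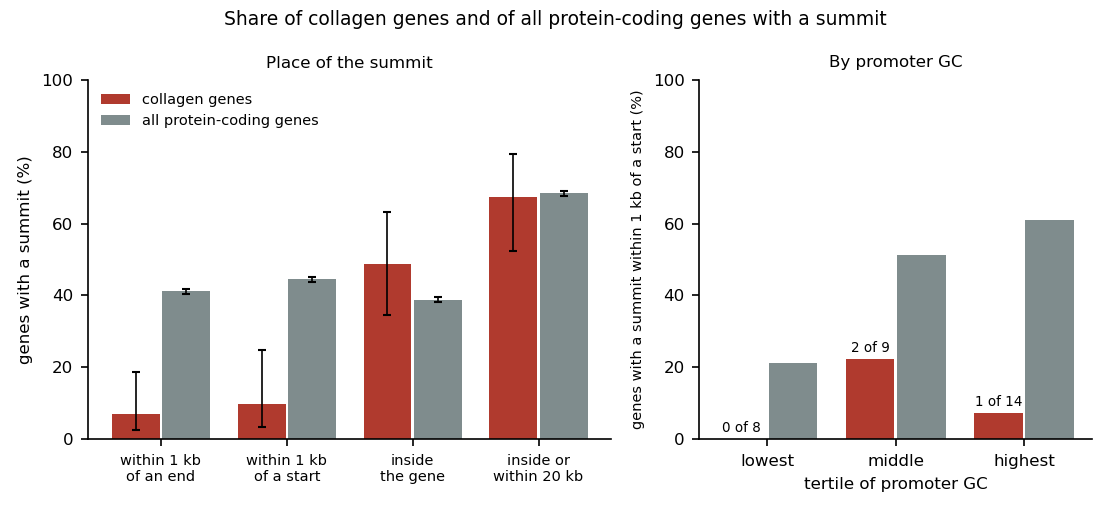
Left, percent of collagen genes and of all protein-coding genes with a summit by place, with Wilson intervals as bars. Right, percent with a summit within 1 kb of a start by tertile of promoter GC, with the collagen counts above the bars. Collagen genes lie far lower at ends and starts (6.98% and 9.68%) and close to all genes within 20 kb (67.4% against 68.5%) when all peaks are counted.

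Within 20 kb, the share of collagen genes with a summit was close to that of all genes over the whole list. It was lower among peaks of high −log10 q, where few collagen genes remain. Of the 43 collagen genes, 29 had a summit inside or within 20 kb, 67.4% (Wilson interval 52.5 to 79.5%), against 68.5% of all protein-coding genes. With only the peaks that reach a −log10 q of 5, it was 34.9% (15 genes) against 48.3%. With those that reach 10 it was 14.0% (6 genes) against 27.7%, and with at least 20 fragments 20.9% (9 genes) against 21.9%. No interval was computed for these smaller counts. Over the whole list, 21 of the 43 had a summit inside the gene record, 48.8% (Wilson interval 34.6 to 63.2%), against 38.8%. Long genes hold more summits, so the longest tertile is the closer comparison: there 18 of 31 collagen genes (58.1%) had a summit inside, against 55.3%, and 22 had one inside or within 20 kb, against 73.7%. In the middle tertile 3 of 12 had one inside, against 38.9%, and 7 had one inside or within 20 kb, against 71.1%. Over whole gene records, collagen genes held 50 summits, 0.724 per 100 kb (exact Poisson interval 0.538 to 0.955), against 1.09 per 100 kb in all protein-coding genes. Over 1 kb from the ends, the interior of collagen genes held 48 summits, 0.704 per 100 kb (exact Poisson interval 0.519 to 0.934), against 0.781 per 100 kb in all protein-coding genes. In the longest tertile this interior density was 0.679 (interval 0.493 to 0.911) in collagen genes and 0.621 in all, and in the middle tertile 1.19 (interval 0.325 to 3.06) and 1.57.

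The distance from a gene end to the nearest summit had a median of 13.6 kb in collagen genes and 3.99 kb in all protein-coding genes. The order was reversed at large distances, with upper quartiles of 33.3 and 43.8 kb. Over 50 kb lay 18.6% of collagen genes, against 23.5% of all. A further 7 collagen genes had their nearest summit just past the window, 1 to 2 kb from an end. That is 17.5% of the 40 without one at an end (Wilson interval 8.75 to 31.95%), against 7.13% of the 11786 protein-coding genes without one. These 7 were COL1A1, COL5A3, COL10A1, COL16A1, COL18A1, COL20A1 and COL23A1. Widening the window to 2 kb therefore raised the collagen count to 10, or 23.3%, against 45.4% of all genes. For COL16A1, COL5A3 and COL18A1 the summit lay upstream of the listed start, by 1307, 1641 and 1840 bp, with folds of 3.82, 3.62 and 4.78. Some of these summits lay closer to another gene record than to the collagen gene. The COL5A3 summit was 1338 bp from an end of RDH8, the COL20A1 summit 1634 bp from ARFGAP1, the COL18A1 summit 481 bp from the noncoding BNAT1 and the COL23A1 summit 677 bp from the noncoding LOC112267937. COL23A1 and COL10A1 had theirs inside the gene, 1727 and 1976 bp from the end where transcription finishes. COL27A1 lay close to this range as well, with a summit 1304 bp past its listed start and a fold of 4.03.

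**Figure D3:**
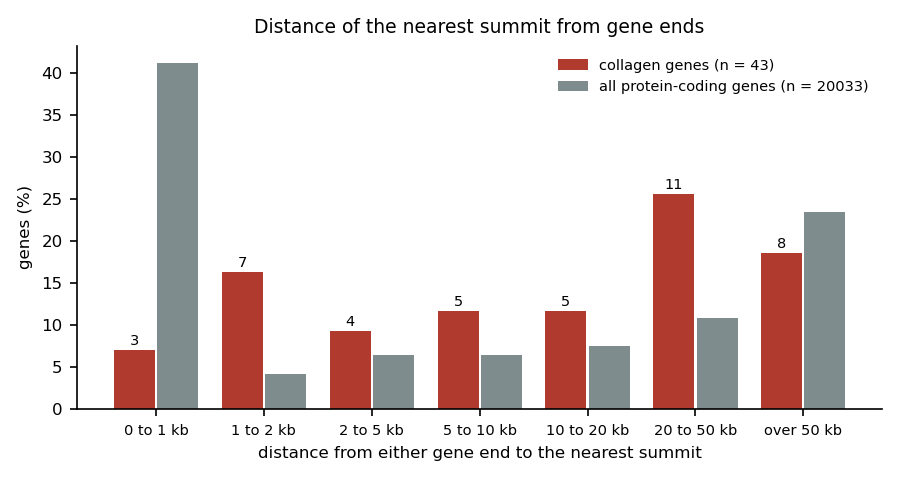
Percent of the 43 collagen genes and of all 20033 protein-coding genes (vertical axis) by the distance from either gene end to the nearest summit (horizontal axis), with the number of collagen genes above each bar. Within 1 kb lie 3 collagen genes and from 1 to 2 kb lie 7, while 41.2% of all genes lie within 1 kb and 4.19% from 1 to 2 kb.

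The fibrillar genes encode the chains of the banded fibrils of skin, bone, tendon and cartilage. None of the 11 had a summit at an end, 4 had summits inside and 6 had one inside or within 20 kb. COL1A1 and COL1A2 encode the chains of type I collagen, the main fibril of skin and bone, and they differed. COL1A1, at chr17:50184101-50201631, held 2 summits near its high-coordinate end. The nearer one lay 1288 bp inside that end with a fold of 8.23 on 32 fragments (exact Poisson interval 21.9 to 45.2). The other, 497 bp from it, had a fold of 4.53 on 18 fragments. A stronger peak outside COL1A1, 5689 bp beyond its low-coordinate end, had a fold of 11.8 on 60 fragments, and its nearest other gene end was that of SGCA, 2484 bp away. COL1A2 had no summit within 78.7 kb of either end.

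COL3A1, the chain of the thin fibrils of soft tissue, and its neighbour COL5A2, a chain that helps start fibrils, had no summit inside or within 20 kb. The nearest lay 29.5 and 87.1 kb from their ends. The cartilage genes COL2A1 and COL11A1 had none either, and COL11A2 had 4 outside it. Of these 4, 3 lay within 1 kb of an end of RXRB, a nuclear receptor gene next to it. COL5A1, the partner chain of COL5A2, held 6 summits over 203.0 kb, with folds of 3.51 to 5.65. The summit nearest the start was the strongest, 3329 bp past it, with 20 fragments. COL27A1, a fibrillar chain of cartilage, held 6 summits as well. The strongest of them, at chr9:114278951-114279129 and deep inside the gene, had a fold of 9.75 on 38 fragments, and the other 5 had folds of 3.63 to 5.44. COL24A1 held 1 summit with a fold of 6.78 on 9 fragments, and COL5A3 had none inside.

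Type IV collagen forms the network of basement membranes, and its 6 genes lie in head-to-head pairs that share a start region. No summit lay at an end of any of them. COL4A1 and COL4A2, the chains found in nearly all basement membranes, have starts with only 126 bases between them. That stretch, chr13:110307158-110307283 on the plus strand, is printed because it serves both genes and had no peak, with the motif matches in capitals (CCAAT, a GC box and TCAAAG, the opposite strand of CTTTGA).
COL4A1_COL4A2: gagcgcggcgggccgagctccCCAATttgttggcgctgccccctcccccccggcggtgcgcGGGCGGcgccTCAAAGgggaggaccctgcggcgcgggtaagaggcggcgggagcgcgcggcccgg
The stretch has a GC content of 80.2% and 20 CpG dinucleotides, and the nearest summit to the start of COL4A2 was 40613 bp inside that gene. COL4A2 held 6 summits, with folds of 3.62 to 6.14 on 6 to 12 fragments, while COL4A1 held 1, with a fold of 3.65 on 5 fragments. In the pair of the kidney basement membrane, COL4A3 held 1 summit (fold 5.30 on 7 fragments) and COL4A4 held none. COL4A5 and COL4A6, on the X chromosome, had none inside or within 20 kb. The nearest summits lay 348.2 kb from an end of COL4A5 and 64.0 kb from an end of COL4A6.

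The short-chain network genes COL8A1, COL8A2 and COL10A1 had no summit at an end. COL10A1, the collagen of hypertrophic cartilage, held 2 summits of 5 and 6 fragments, both also inside the overlapping gene record NT5DC1, so they cannot be assigned to either gene. Both COL8 genes had summits only outside, with 1 of the 2 beside each lying at the end of a neighbour, CMSS1 and ADPRS.

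Fibril-associated collagens (FACIT) attach to the surface of fibrils. Of the 10 genes, COL12A1 was the only one with a summit at an end, 7 had summits inside, and 8 summits lay inside in all. COL16A1 held 1 with a fold of 5.55 on 24 fragments, 85 bp from an end of the long noncoding record LOC101929444. COL22A1 held 2 and COL9A1, COL9A2, COL14A1 and COL19A1 held 1 each, with folds of 4.06 to 5.16 on 5 to 10 fragments. COL20A1 had summits only outside, and COL9A3 and COL21A1 had none within 20 kb. The nearest summit to an end of COL21A1 lay 148.7 kb away.

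Among the beaded filament genes, COL6A6 alone had summits inside. The neighbours COL6A1 and COL6A2 encode chains of the common form of type VI collagen. COL6A1 had 1 summit 10757 bp outside, with a fold of 3.93, and COL6A2 had none within 73.8 kb of its ends. COL6A3, the third chain of that form, had 1 weak summit 18408 bp upstream on 5 fragments, and COL6A5 had none.

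COL23A1, a collagen held in the cell membrane, carried the strongest peak of the family. Its peak at chr5:178585532-178585743 had its summit inside the gene, 4702 bp past the listed start, with a fold of 24.7 on 80 fragments (exact Poisson interval 63.4 to 99.6) and a −log10 q of 86.9. The local background was 2.28 fragments. By fold it ranked 33 of the 26642 peaks, and it ranked 1 of the 9110 that lie inside protein-coding genes over 1 kb from any protein-coding gene end. COL23A1 held 8 further summits, with folds of 3.94 to 7.91 on 6 to 18 fragments. A run of 3 of them lay with gaps of 149 and 709 bp, about 54 kb past the start. The other membrane collagens differed from it: COL13A1 had 1 summit outside, and COL25A1, the longest collagen gene at 493.9 kb, had none, with the nearest 294.8 kb from an end.

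The multiplexin genes encode basement membrane collagens that can release inhibitors of vessel growth. COL18A1 held 3 summits, the strongest with a fold of 7.98 on 26 fragments, and another with a fold of 5.76 lying 125 bp from an end of its antisense record COL18A1-AS2. A further summit lay 1840 bp upstream of its start. COL15A1 held 1 summit with a fold of 3.50 on 6 fragments. COL28A1 and COL26A1 are not multiplexins and were placed in no named class. COL28A1 held 1 summit with a fold of 5.61 on 8 fragments, and COL26A1 had none.

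In all, 14 of the 43 genes had no summit inside or within 20 kb, against 31.5% of all protein-coding genes. They were COL1A2, COL2A1, COL3A1, COL4A4, COL4A5, COL4A6, COL5A2, COL6A2, COL6A5, COL9A3, COL11A1, COL21A1, COL25A1 and COL26A1. Their lengths ranged from 24.9 to 493.9 kb. At the other extreme 5 of the 43 genes held 3 or more summits inside, against 6.96% of all protein-coding genes. They were COL23A1, COL5A1, COL27A1, COL4A2 and COL18A1. All 5 are among the 31 collagen genes of the longest tertile, a share close to the 15.2% of all genes there. COL23A1, which is 352.8 kb long, ranked 54 among the 20033 genes by summits inside. In COL5A1, COL27A1 and COL18A1 the median local background of the peaks was 2.92, 2.56 and 2.44 fragments, above the list median of 0.962, while in COL4A2 and COL23A1 it was 1.03 and 1.06. The part of this background in the number of summits was not tested.

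**Figure D4:**
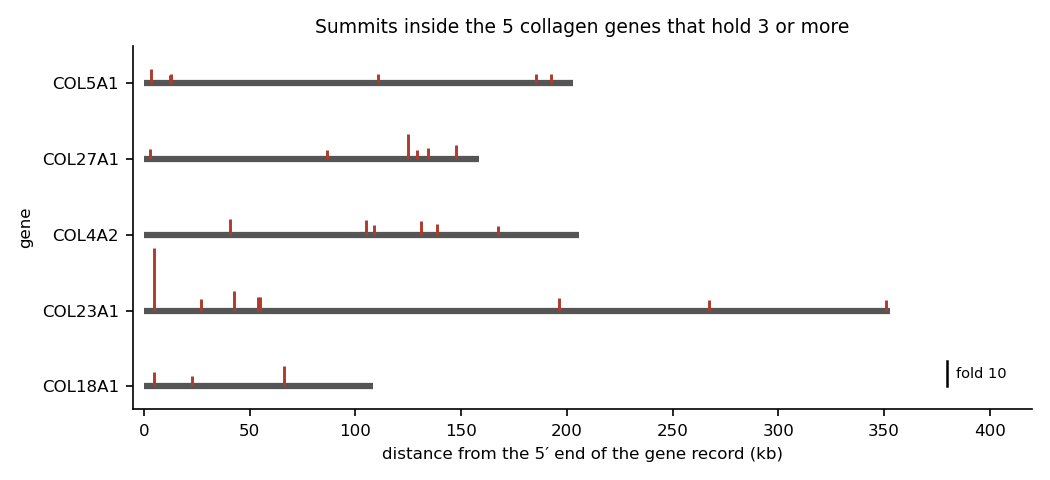
Position of each summit along the 5 collagen genes with 3 or more summits inside (horizontal axis, kb from the 5′ end of the gene record, grey bar = gene record). The height of each line is its fold, with a scale of fold 10 at the right; the line of fold 24.7 stands 4702 bp into COL23A1, and the other lines are at most 9.75.

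The median strength of collagen peaks was below that of the list, whose median lay inside the collagen interval. The 52 summits inside or at an end of a collagen gene had a median fold of 4.52 (order-statistic interval 4.07 to 5.14), against 5.13 over all summits. Set against summits in the same place, the 48 over 1 kb from the gene's ends had a median of 4.46, against 4.79 for the 9110 such summits of all protein-coding genes. The median number of fragments was 10 in those collagen summits and 9 in all such summits, and the median local background was 1.25 and 1.03 fragments. Among the 52, 14 had a −log10 q of at least 5 (26.9%), against 41.2% of the list, and 5 had at least 10 (9.62%), against 16.4%. Those with at least 20 fragments numbered 7 (13.5%), against 15.6%. These shares are set against the whole list, which also holds summits at gene ends, and were not computed for summits in the same place. The 30 summits with 10 fragments or fewer, 57.7% against 55.5% of the list, rest on counts too small to rank among themselves.

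**Figure D5:**
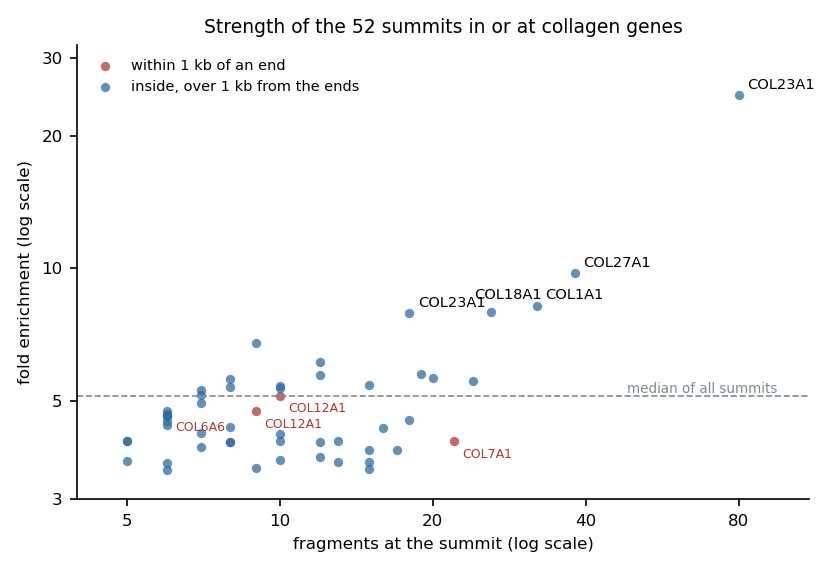
Fold enrichment (vertical axis, log scale) against fragments at the summit (horizontal axis, log scale) for the 52 summits in or at collagen genes, with the median fold of all 26642 summits as a dashed line. COL23A1 stands apart at a fold of 24.7 on 80 fragments, and the 4 summits at gene ends lie between 4.07 and 5.14.

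Outside the genes, 34 summits lay 1 to 20 kb from a collagen gene, and 10 of them were within 1 kb of an end of another protein-coding gene. UQCRC1, a core subunit of respiratory complex III beside COL7A1, had 3, the strongest with a fold of 10.9 on 19 fragments only 16 bp from its end. PEF1, a calcium-binding protein gene beside COL16A1, had a summit 17 bp from its end with a fold of 9.47 on 24 fragments. The rest lay at RXRB, FRK, CMSS1 and ADPRS, with folds of 4.01 to 5.36. The summit counts within 20 kb therefore include peaks that sit at the ends of neighbours.

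The genes that make, export, cut, crosslink and bind collagen were set beside the collagens. Of these 61, 25 had a summit at an end, 41.0% (Wilson interval 29.5 to 53.5%), near the 41.2% of all protein-coding genes. By list, the counts ranged from 0 of 5 to 10 of 15, with Wilson intervals that overlap. Of the modifying enzymes, which hydroxylate, isomerise and glycosylate the chains in the endoplasmic reticulum, 10 of 15 had one. P4HB, the beta subunit of prolyl 4-hydroxylase and a disulfide isomerase, had a fold of 12.9 on 74 fragments. PPIB, a prolyl isomerase, had 9.34 on 21, P4HA1, a catalytic subunit of prolyl 4-hydroxylase, had 9.01 on 15, and P3H1, a prolyl 3-hydroxylase, had 8.95 on 17. COLGALT2 and CRTAP had none.

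A summit at an end was found at 4 of the 10 chaperone and export genes. HSPA5, a general chaperone of the endoplasmic reticulum, had a fold of 12.7 on 33 fragments. MIA3, which loads bulky collagen into transport carriers, had 9.09 on 13, FKBP14 had 6.58 and TMEM38B had 5.26. FKBP10 and MIA2 had none. The propeptide list had 2 of 8, PCOLCE2 with 5.97 and TLL2 with 4.89, and ADAMTS14 and ADAMTS2 had none. None of the 5 lysyl oxidase genes that crosslink fibrils had one, LOX and LOXL1 included.

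Of the collagen receptors, 3 of 11 had a summit at an end. ITGA10, an integrin alpha chain for collagen, had a fold of 14.1 on 31 fragments, its partner chain ITGB1 had 8.23 on 12, and DDR1, an epithelial collagen receptor kinase, had 4.11 on 21. DDR2 and GP6 had none. Of the basement membrane partners, 6 of 12 had one, among them the laminin chains LAMA1 with a fold of 6.30 on 12 fragments, LAMB3 with 6.10 on 55 and LAMC1 with 5.31 on 9. LAMA3 and LAMA5 had none at an end. No test compared these lists with the collagens.

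Lists of cell type markers were counted in the same way. A summit at an end was present at 8 of 10 squamous epithelial genes, among them SFN, DSP, ITGA6 and KRT5, while TP63 and DSG3 had none there. That is 80% (Wilson interval 49.0 to 94.3%), against 41.2% of all protein-coding genes. Of the markers of cells that make much collagen, 1 of 10 fibroblast genes (PDGFRB) and 0 of 6 chondrocyte genes had one, and of 5 endothelial genes KDR had one. Their intervals reach up to 40.4%, 39.0% and 62.4%, beside the same 41.2%. These are peaks and not expression levels, and they do not settle the cell type. Any link between these lists and the collagen counts was not tested. COL17A1, the hemidesmosome collagen left out of the set, had no summit at an end and 4 inside.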

How the data were processed

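One peak list from the TCF4 antibody library was used. The submitters' processing notes name Bowtie2 2.3.5.1, SAMtools, MACS2 2.2.7.1 and the build hg38, with no settings. The deposited fold is a ratio, the peak caller's enrichment over its background estimate. The p-value and q-value deposited for every summit are on a −log10 scale, and the authors' score equals 10 times that q entry, decimals dropped. Setting fold to (fragments + 1) / (background + 1) and the p-value to a Poisson tail gave the fragments for all 26642 peaks within 0.0001 of the −log10 p. On simulated data 500 of 500 peaks and 200 of 200 planted gene ends were recovered. Total depth, and whether the IgG library served as the caller's control, were not given in the sources.

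Gene records and 300-base promoter windows (250 before and 50 after the start) came from RefSeq for GRCh38.p14. Summits were counted per gene, and shares were set beside all protein-coding genes and tertiles of length, GC and CpG number. No genome was used, so sequence away from promoters is not shown. Named genes, by rule, were the collagens with a summit at an end, with 3 or more inside or with none within 20 kb, the type IV pairs, COL6A1 and COL6A2, the fibrillar COL1A1, COL1A2, COL3A1, COL5A1 and COL5A2, neighbours whose end holds a counted summit, and up to 4 members with the highest fold at an end and 2 without one in each other list, of which 1 gene is not reported here. The members, lists and windows were chosen with earlier results of these data known, and the other collagens, the printed COL7A1 and type IV stretches, the composition tertiles and the distance bands were added after their values were seen. Computation used Matplotlib 3.10.9, pandas 2.3.3, SciPy 1.17.1 and NumPy 2.4.6 under Python 3.11.15.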

Additional observations from a re-analysis of the deposited data

How the results depend on the processing

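The count at gene ends (3 of 43) fell to 1, 0 and 1 with a −log10 q of at least 5, a −log10 q of at least 10 and at least 20 fragments, against 27.1%, 14.1% and 11.0% of all protein-coding genes. At starts (3 of 31) it was 1, 0 and 1, against 29.6%, 15.3% and 11.6%. Genes with a summit inside (21) numbered 8, 4 and 6 (18.6%, 9.30% and 14.0%), against 19.9%, 8.18% and 7.098%, and those with one within 20 kb (29) numbered 15, 6 and 9 (34.9%, 14.0% and 20.9%), against 48.3%, 27.7% and 21.9%. Density inside (0.724 per 100 kb) was 0.188, 0.0724 and 0.0869, against 0.414, 0.148 and 0.158. The density of all genes takes in the shortest tertile, which holds no collagen gene and had 4.90 per 100 kb with all peaks counted. In the longest tertile, with all peaks, it was 0.703 in collagen genes (exact Poisson interval 0.515 to 0.938) and 0.757 in all genes. Densities by length were not computed at the 3 stricter settings. The median fold (4.52) was 5.95, 8.23 and 7.98, against 6.87, 9.10 and 8.08, and the mean was 5.24 against 5.81. A window of 2 kb gave 10 genes at ends and 7 at starts, against 45.4% and 46.6%. Fewer peaks or a wider window move all these counts by construction. The lower collagen share within 20 kb at a high −log10 q rests on 15 and 6 genes without an interval, and its cause was not tested. The other 15 settings kept the collagen values within 1.5 times the count or within the interval of the value. The shares of all genes moved in some of them. Without summits at the ends of several genes they were 29.2% at ends and 33.4% at starts, with the collagen counts still 3. For summits inside, any overlap of the peak gave 48.8% in collagen genes against 48.2% in all. Leaving out summits within 1 kb of the gene's ends gave 46.5% against 25.3%. Collagen genes are long, and long genes hold more summits. No share of genes with a summit inside was computed by length tertile at these settings. With all peaks counted, that share was 58.1% in collagen genes of the longest tertile, against 55.3% of all genes there. No paired analysis was possible because each antibody has 1 library. Depth limits all of it: the median peak rests on 10 fragments.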
